A study of Mus musculus with 6 samples.

Results

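The genes described here are Trp53, its paralogs Trp63 and Trp73, and 5 direct regulators or partners of Trp53: Mdm2, Mdm4, Ppm1d, Usp7 and Wrap53. They were taken by gene symbol, without use of any measured value, and are 8 of the 53379 genes in the deposited count table. The authors' normalized table names 6 of them. Trp63 and Trp73 were matched by gene identifier. For Trp53, Mdm2 and Mdm4 the 6, 9 and 14 annotated transcripts were described as well.

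The study measured total RNA in 6 organoid cultures of KPC mouse pancreatic tumours, in which Pdx1-Cre, a Cre recombinase active in pancreatic progenitors, switches on a mutant allele of Trp53. All cultures are labelled C57/Bl6, were grown in domes of Matrigel in complete organoid medium, and carry Pdx1-Cre. The 3 heterozygous cultures are labelled Trp53LSLR172H/+, with 1 mutant and 1 wild-type Trp53 allele. The 3 LOH cultures, named for loss of heterozygosity, are labelled Trp53LSLR172H/-, so both groups carry the R172H allele. Each of the organoid lines 6, 23 and 34 gave 1 culture of each genotype, and the age of the mice is not given. Nothing in the labels says that cultures of a line were derived more than once, so p-values measure the spread among 3 lines with 1 library each. Descriptions of the LOH libraries carry the suffix "Nut", which is not explained in the sources used here. Whatever it stands for cannot be told apart from the genotype.

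p53, the protein of Trp53, is a transcription factor that is activated by DNA damage and oncogene signalling and that drives genes of growth arrest and cell death. Mdm2 is an E3 ubiquitin ligase that marks p53 for destruction and is itself a p53 target gene, which closes a negative feedback loop. In pancreatic cancer, missense changes such as R172H in mouse leave a full-length p53 that has largely lost its binding to DNA, and the remaining wild-type allele is often lost later.

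Trp53 lies on chromosome 11 (GRCm38, chr11:69580359-69591873, plus strand). The codon changed in the R172H allele is counted from the start codon of the transcript Trp53-203 and lies in its exon 5. The reference coding sequence around it is shown because every library carries a changed copy of this codon. It comes from the GENCODE release 21 transcript at chr11:69588481-69588543, plus strand, with that codon in capitals (bases 69588511 to 69588513), and the capitals spell an arginine codon.
Trp53 R172H codon region: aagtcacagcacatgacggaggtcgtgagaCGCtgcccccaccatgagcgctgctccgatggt
The deposited tables count both alleles of Trp53 together, so a level below does not say how much came from the mutant copy.

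Mdm2 lies on chromosome 10 (chr10:117688875-117710758, minus strand) and has an upstream promoter before exon 1 and a p53-responsive promoter in intron 1. The stretch of intron 1 with the matches to the p53 response element is shown because Mdm2 was the member whose level changed. It was read from the first exon of the noncoding transcript Mdm2-207, at chr10:117710067-117710124 on the minus strand. Relative to Mdm2-201 it lies in intron 1, between exon 1 (117710552 to 117710758) and exon 2 (117709946 to 117710028). Capitals mark the 2 matches, each 20 bases long with 3 mismatches from the consensus.
Mdm2 intron 1 elements: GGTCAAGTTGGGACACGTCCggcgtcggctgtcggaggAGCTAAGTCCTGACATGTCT

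The search used the p53 response element, 2 half-sites side by side with no spacer, on both strands, and allowed up to 3 mismatches of 20 bases, a limit chosen after the data had been seen. Of 32851 promoter windows of 300 bases in the RefSeq table of GRCm38, 6.29% held at least 1 match and 0.216% held 2 or more that did not overlap. The first 300 bases of Mdm2-207 held 2. Promoter windows were found for 7 of the 8 genes, and 4 of their 10 windows held a match. Those were windows of Mdm4, Trp73, Wrap53 and Trp53, and the last 2 share 1 site. Wrap53 (chr11:69561758-69580255, minus strand) starts next to Trp53 and is read in the other direction, so the bases between both starts serve as upstream sequence for each. They are shown at chr11:69580251-69580358, plus strand, from RefSeq, with the shared match at 69580284 to 69580303 in capitals. The Wrap53 start used for this stretch is 69580250, so its first bases lie inside the GENCODE gene given above.
between Wrap53 and Trp53: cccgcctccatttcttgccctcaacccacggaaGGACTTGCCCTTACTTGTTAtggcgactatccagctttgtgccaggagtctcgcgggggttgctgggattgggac
A match is a description of the letters, and binding was not measured here.

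Libraries held from 13680458 to 27917277 expected counts, the heterozygous library of line 23 being the shallowest. Genes of the authors' protein-coding table took 67.9% to 73.3% of the counts in heterozygous libraries and 61.4% to 67.2% in LOH libraries, ranges that do not overlap. Fitted on the protein-coding table alone, Mdm2 had a log2 fold change of -1.26. Markers of pancreatic duct epithelium reached 1 CPM (counts relative to the library's total, here scaled by TMM, the trimmed mean of M values) for 10 of 10 genes and summed to 5835 to 6517 CPM (heterozygous) and 5361 to 11572 CPM (LOH). Other cell types were represented weakly. Fibroblast markers reached 1 CPM for 0 of 10 genes, with sums of 0.0742 to 0.133 CPM (heterozygous) and 0.512 to 1.16 CPM (LOH), and Col3a1 and Thy1 were at 0 throughout. Of 10 leukocyte markers 1, Cd14, reached 1 CPM, with sums of 44.4 to 47.5 CPM and 21 to 41.4 CPM, and Adgre1 and Lyz2 were among those at 0. Endothelial markers reached 1 CPM for 1 of 5 genes, with sums of at most 0.3 CPM (heterozygous) and 0.605 to 2.91 CPM (LOH). Acinar markers reached it for 1 of 6, with sums of 0.601 to 0.89 CPM and 0.868 to 2.44 CPM, and Ptf1a was at 0. Multiciliated-cell markers summed to 12.8 to 19.98 CPM (heterozygous) and 3.2 to 10.1 CPM (LOH), where 3 of 8 reached 1 CPM and Gmnc and Dnah5 were at 0. The fibroblast and endothelial sums were higher in LOH and the leukocyte and multiciliated sums lower, with ranges that did not overlap between groups. Of single tested genes, 16.5% had every LOH library below every heterozygous one. The share with every LOH library above was not counted. The leukocyte sum was nearly all Cd14 (means 45.1 and 30.6 CPM). The multiciliated sum was mostly Foxj1 (means 13.7 and 3.07 CPM, adjusted p = 0.208 by edgeR). Among the other multiciliated markers tested, Cfap126 was lower in LOH on average and Rsph1 and Tppp3 were higher. None of the markers that could be tested passed in the fit without the replicate block. With the block 1 did, the duct marker Cftr, a chloride channel, at 8.25 ± 7.35 CPM (heterozygous) and 60.5 ± 28.1 CPM (LOH; SD, n = 3 each; adjusted p = 0.0602 without and 0.0431 with the block, by edgeR). The part of these markers in the results below was not tested.

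The comparison of LOH with heterozygous cultures asks how expression changed when the wild-type Trp53 allele was lost. Of the 8 genes, 6 had enough counts to be tested, and Mdm2 alone passed at an adjusted p of 0.05 (edgeR quasi-likelihood test, Benjamini-Hochberg over 14537 genes). It was lower in LOH, by 58.3%. The background is that 5.21% of all tested genes passed in either direction and 1.66% passed as lower, so 1 of 6 is a small count to set against it. With the organoid line as a replicate block, 1.47% of genes passed and 0 of the 6 members did.

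Trp53 itself was present in every library. Its level was 77.3, 76.3 and 86.5 CPM in the heterozygous cultures of lines 6, 23 and 34, and 73.5, 52.5 and 47.4 CPM in the LOH cultures of the same lines. The groups did not overlap, but LOH line 6 lay just under the heterozygous values while lines 23 and 34 lay well below them. Heterozygous cultures averaged 80.01 ± 5.61 CPM against 57.8 ± 13.9 CPM for LOH (SD, n = 3 each), and the difference did not pass the test (log2 fold change -0.47, SE 0.22, adjusted p = 0.227 by edgeR). Within lines the log2 ratio of LOH to heterozygous was -0.07, -0.54 and -0.87. Without the LOH library of line 6 the log2 fold change was -0.72 and passed (adjusted p = 0.0368 by edgeR), in a fit that called 16.2% of all genes. Without both libraries of line 6 it was -0.73 and did not pass (adjusted p = 0.0676 by edgeR), where 9.66% of all genes were called. The label of LOH refers to an allele and not to a level, and a Trp53 level does not check it here. In bulk RNA, fewer cells of a kind and less RNA per cell cannot be told apart, for Trp53 or for any gene below.

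The paralogs were at the limit of detection. Trp63 encodes p63, which in epithelia marks basal and squamous cells (chr16:25683763-25892102, plus strand). It had 1 count in the LOH library of line 23 and 0 in the other 5 libraries. Trp73, encoding p73, which is known for its part in multiciliated cells and neurons (chr4:154056253-154140208, minus strand), had 1 count in the heterozygous library of line 23 and 0 elsewhere. A count of 0 allows up to 3 counts, which is 0.1 to 0.223 CPM at these depths and covers counting error only. Neither gene had enough counts to enter the test, and no direction can be read from 1 count. Of 10 markers of basal or squamous epithelium, where p63 is usually found, 3 reached 1 CPM, with sums of 6.94 to 12.8 CPM (heterozygous) and 8.08 to 25.6 CPM (LOH).

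Mdm2 fell in LOH cultures of all 3 lines. It stood at 74, 68.6 and 68.5 CPM in heterozygous lines 6, 23 and 34 and at 22.2, 30.6 and 35.1 CPM in the LOH cultures. The heterozygous values lay close together, and every LOH value lay far below the lowest heterozygous one. Heterozygous cultures averaged 70.4 ± 3.17 CPM against 29.3 ± 6.51 CPM for LOH (SD, n = 3 each). The fitted difference was -1.26 in log2 (SE 0.22, adjusted p = 0.0284 by edgeR). Line by line the log2 ratio was -1.73, -1.16 and -0.97. With the replicate block, Mdm2 stood at -1.29 (SE 0.27) with an adjusted p of 0.0905 by edgeR, so the call was lost at a similar size. An exact permutation test of the 6 values gave a two-sided p of 0.1, the smallest that 3 against 3 libraries can give. The call was also lost without any 1 heterozygous library (adjusted p by edgeR 0.125, 0.123 and 0.143 without lines 6, 23 and 34) and without the LOH library of line 23 (0.0569). In those edgeR fits without a heterozygous library 0 genes of the whole table passed, while 2272 to 2966 had an unadjusted p under 0.05. Of 18 alternatives, 11 kept the Mdm2 call and 7 lost it. Those that kept it include DESeq2 (adjusted p = 3.04e-05), which called 14.1% of all genes with an adjusted p. Limma on log2(TPM + 1) also kept it (adjusted p = 0.0133), where 16% of all genes were called.

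Mdm4, a relative of Mdm2 that binds p53 and blocks its activity but is a weak ligase by itself, moved in opposite directions in lines 6 and 23 (chr1:132959484-133030561, minus strand). The heterozygous values were 61.3, 25.6 and 42.1 CPM and the LOH values 27.9, 74.3 and 45.7 CPM for lines 6, 23 and 34. The highest and the lowest heterozygous library both turned over, so that line 6 went down and line 23 went up. Averages of 43 ± 17.8 CPM (heterozygous) and 49.3 ± 23.4 CPM (LOH; SD, n = 3 each) gave a log2 fold change of 0.20 (SE 0.43, adjusted p = 0.802 by edgeR). The sign of that value flipped to -0.29 on the log2(TPM + 1) scale, to -0.23 without the LOH library and to -0.07 without the heterozygous library of line 23. Within lines the log2 ratio was -1.13, 1.53 and 0.12. The kinases Atm and Atr, which signal DNA damage to p53, were picked out after their values were seen, for the same order of the 3 within-line ratios. Atm had log2 ratios of -2.56, 2.20 and 0.96 and Atr of -2.10, 1.81 and 0.79 in lines 6, 23 and 34. The order was not particular to these kinases. The deubiquitinase gene Usp9x (-2.47, 2.46 and 1.87) and the E3 ligase gene Ube3a (-2.21, 2.16 and 1.84) had it too, while other listed genes had other orders. How common the order is over all genes was not counted, and a link to Mdm4 was not tested. Mdm4 overlaps an annotated gene on the opposite strand, Gm29257, over 639 bases. The strand setting of the counting is not given in the sources used here, so reads of the pair may not be separated there.

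**Figure D1:**
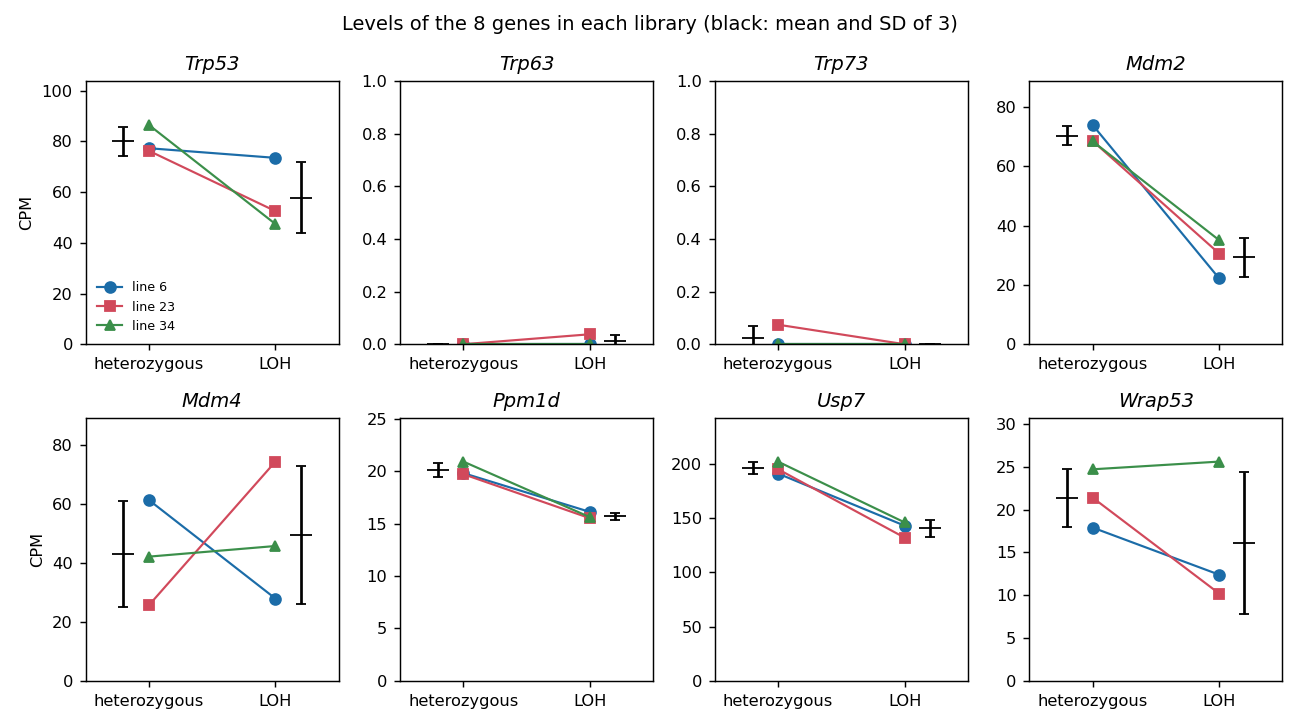
Level of each of the 8 genes in CPM (vertical axis, linear, starting at 0) in heterozygous and LOH libraries. Points joined by a line are the 2 cultures of 1 organoid line, and black bars are the mean and SD of 3 libraries. Mdm2 goes down in all 3 lines, from about 70.4 to 29.3 CPM on average, and the lines of Mdm4 cross, while Trp63 and Trp73 stay near 0 on an axis that ends at 1 CPM.

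Usp7, a deubiquitinase that removes ubiquitin from Mdm2 and from p53, had the highest mean TPM of the 8 genes in both groups (chr16:8689595-8792308, minus strand). It stood at 191, 195 and 202 CPM in heterozygous lines 6, 23 and 34 and at 143, 132 and 146 CPM in the LOH cultures. The groups did not overlap and each was tight, averaging 196 ± 5.65 CPM when heterozygous and 140.4 ± 7.61 CPM after LOH (SD, n = 3 each). The difference of -0.48 in log2 (SE 0.15) did not pass (adjusted p = 0.112 by edgeR). On the TPM scale (transcript abundance corrected for length and depth) the difference was -0.80 on log2(TPM + 1) and passed (adjusted p = 0.0282 by limma). That scale placed the median of all genes tested at -0.35, against 0.06 in the count test.

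Ppm1d, encoding the phosphatase Wip1 that removes phosphates from p53 and its activating kinases, and a known p53 target, was lower by a small and even amount (chr11:85311244-85347066, plus strand). Its values were 19.8, 19.7 and 20.9 CPM in heterozygous and 16.1, 15.5 and 15.6 CPM in LOH lines 6, 23 and 34. The groups did not overlap, and the spread within each was under 1 CPM (means 20.1 ± 0.7 and 15.7 ± 0.341 CPM, SD, n = 3 each). The difference of -0.36 in log2 (SE 0.17) did not pass (adjusted p = 0.251 by edgeR).

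Wrap53, which encodes a protein of Cajal bodies and telomerase and has an antisense first exon described as a regulator of Trp53, had 17.9, 21.4 and 24.7 CPM in heterozygous and 12.4, 10.2 and 25.6 CPM in LOH lines 6, 23 and 34. The groups overlapped, because line 34 was as high in LOH as in heterozygous culture. The log2 fold change was -0.41 (SE 0.37, adjusted p = 0.509 by edgeR), and the log2 ratio within lines was -0.53, -1.06 and 0.05. Wrap53 and Trp53 do not overlap in release 21 of the annotation.

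Of the 6 tested members, 4 had every LOH library below every heterozygous one (Trp53, Mdm2, Ppm1d and Usp7), where 16.5% of all tested genes did so. Each of these 4 had an exact permutation p of 0.1, two-sided, the smallest possible, and Mdm4 had 0.7 and Wrap53 0.4. Apart from Mdm4 on the count scale, all tested members had a log2 fold change below 0, against a median of 0.06 over all genes tested.

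In TPM, where levels of different genes can be set side by side, the order in heterozygous libraries was Usp7 (58.4 ± 5.81), Trp53 (55 ± 6.18), Mdm2 (39.1 ± 5.42), Wrap53 (14.2 ± 1.74), Mdm4 (12.7 ± 5.37) and Ppm1d (8.64 ± 0.973), each as mean and SD of 3 libraries. Usp7 and Trp53 overlapped, as did Wrap53 with Mdm4 and Mdm4 with Ppm1d, while every Trp53 value was above every Mdm2 value and every Mdm2 value above every Wrap53 value. In LOH libraries the order was Usp7 (33.1 ± 2.19), Trp53 (30.7 ± 10.2), Mdm2 (11.3 ± 2.64), Mdm4 (10.3 ± 4.88), Wrap53 (8.14 ± 3.65) and Ppm1d (5.16 ± 0.61). Mdm2 there no longer stood apart from Mdm4, the genes being neighbours whose libraries overlapped.

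Ratios of 2 genes within a library do not depend on the scaling of the library. The ratios were chosen after the levels had been seen. Trp53 was 1.33, 1.41 and 1.49 times as abundant as Mdm2 in heterozygous lines 6, 23 and 34, and 5.02, 2.28 and 1.66 times in LOH lines. The rise was large in line 6 and small in line 34. TPM also rests on the effective length of a gene, which depends on how reads are shared among its transcripts. For Mdm2 it was 2498.6 bases in LOH line 6 and 1950.2 to 2189.1 in the other libraries. Its part in the 5.02 of LOH line 6 was not tested. Mdm4 to Mdm2 stood at 0.416, 0.244 and 0.287 in heterozygous and 0.824, 1.32 and 0.594 in LOH lines, so Mdm4 transcripts outnumbered Mdm2 transcripts in LOH line 23. Usp7 to Mdm2 was 1.44, 1.56 and 1.5 in heterozygous and 4.23, 2.69 and 2.31 in LOH lines. These 3 ratios did not overlap between groups (exact permutation p = 0.1 each, two-sided, the smallest possible). They share Mdm2 as denominator, whose own TPM did not overlap between groups (34.1 or more in heterozygous, 13.5 or less in LOH libraries). The 3 ratios are therefore not separate support for a change. Wrap53 to Trp53 overlapped between groups, at 0.228, 0.267 and 0.283 against 0.165, 0.19 and 0.543 (exact permutation p = 1). Ppm1d to Trp53 also overlapped, with means of 0.157 and 0.175 (exact permutation p = 0.5).

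**Figure D2:**
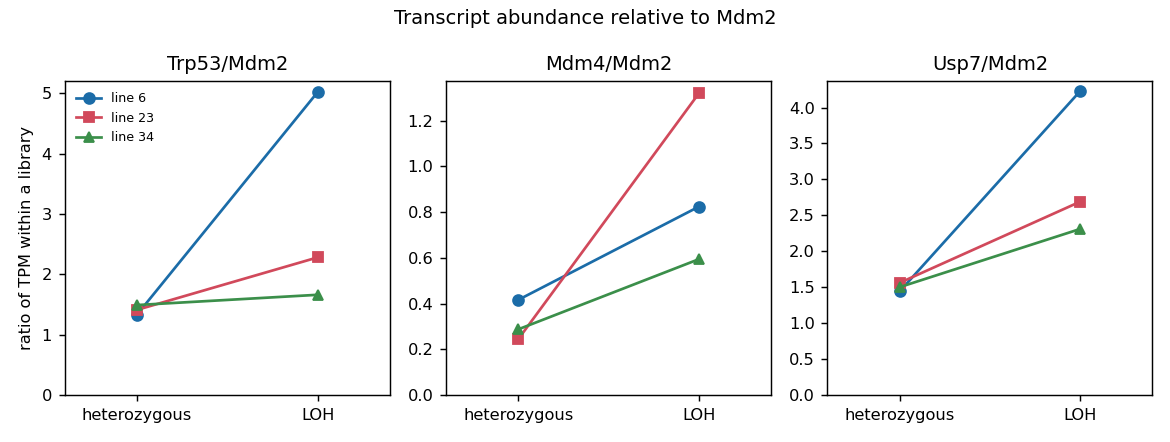
Ratio of the TPM of Trp53, Mdm4 and Usp7 to the TPM of Mdm2 within a library (vertical axis, linear, starting at 0) in heterozygous and LOH cultures, with 1 line joining the 2 cultures of each organoid line. All 9 lines rise, with Mdm2 as their shared denominator, and the largest ratio of Trp53 to Mdm2 is the 5.02 of LOH line 6.

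The transcript tables divide each gene among its annotated transcripts. Reads that fit several transcripts are shared between them by estimate, and that uncertainty is not in the counts or shares below. Of the 29 transcripts of Trp53, Mdm2 and Mdm4, 17 had enough counts to be tested and 0 passed (edgeR quasi-likelihood test over 36699 transcripts, of which 0.0272% passed). An unadjusted p under 0.05 was reached by 4, all of Mdm2, and by 13.8% of all transcripts. DESeq2 called 1, Mdm2-201, and 4.34% of all transcripts with an adjusted p. Of the 17, 13 had a log2 fold change below 0: 4 of 4 for Trp53, 7 of 7 for Mdm2 and 2 of 6 for Mdm4.

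Trp53 was carried by 1 transcript in every library. Trp53-203, with a coding sequence of 1170 bases, took 86.2%, 81.2% and 85% of the gene's TPM in heterozygous lines 6, 23 and 34 and 77.2%, 84% and 82.8% in LOH lines. Trp53-202, whose exon 11 starts at 69591254 instead of 69591350 and whose coding sequence has 1134 bases, took 8.79%, 14.1% and 10.5% in heterozygous and 18.2%, 10.4% and 10.6% in LOH lines. The shares overlapped between groups (exact permutation p = 0.4 for Trp53-203 and 0.6 for Trp53-202). In counts, Trp53-203 had a log2 fold change of -0.50 (SE 0.22, adjusted p = 0.378 by edgeR) and Trp53-202 of -0.12 (adjusted p = 0.945 by edgeR). The sign of the second turned to 0.04, 0.10 and 0.13 when the heterozygous library of line 23, or the LOH library of line 23 or 34, was left out.

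Mdm2-201, a transcript of 12 exons that starts in exon 1, held 56.5%, 53% and 47.3% of the gene's TPM in heterozygous and 74.3%, 56.5% and 48.9% in LOH lines 6, 23 and 34. Its log2 fold change was -1.20 (SE 0.18, adjusted p = 0.085 by edgeR). Mdm2-206 held 10.8%, 10.2% and 16.8% in heterozygous and 11%, 1.39% and 13.1% in LOH lines, and Mdm2-204 held 13.8%, 11.7% and 9.8% against 0%, 13.6% and 11.8%. The noncoding Mdm2-207, whose first exon holds the element matches printed above, had a log2 fold change of -2.33 (SE 0.58, adjusted p = 0.166 by edgeR) on a low level.

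The Mdm2 transcripts were also added up by their annotated start, a grouping made after the values were seen. Starts of RNA were not measured, so these sums are not a reading of promoter output. The 5 that start in exon 1 made up 67.7%, 64.5% and 63.4% of the TPM in heterozygous lines 6, 23 and 34 and 85%, 79.2% and 63.5% in LOH lines. The 3 that start in intron 1 or exon 2, Mdm2-206, Mdm2-207 and Mdm2-209, made up 18.6%, 23.7% and 26.8% in heterozygous and 15%, 7.16% and 24.7% in LOH lines. Their summed level was 8.33, 8.1 and 10.2 TPM in heterozygous and 1.27, 0.87 and 3.35 TPM in LOH lines, so every LOH value was below every heterozygous one. The share of intron 1 or exon 2 starts differed by -7.41 percentage points, with overlapping groups (exact permutation p = 0.3). The exon 1 starts summed to 30.3, 22 and 24.2 TPM in heterozygous and 7.14, 9.55 and 8.59 TPM in LOH lines, also without overlap. How many of all transcripts were apart in this way in TPM was not counted. On log2(TPM + 1) the median of all transcripts tested was -0.27, and 924 of the 1131 called were lower in LOH. A difference in the proportion of both starts was not shown. In LOH line 6 the intron 1 or exon 2 class rests on 11 expected counts.

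Mdm4 was spread over more transcripts. Mdm4-210 held 49.4%, 32.6% and 46.2% of the TPM in heterozygous lines 6, 23 and 34 and 43.8%, 47.1% and 49.98% in LOH lines. Mdm4-214 held 17.1% ± 2.12 in heterozygous and 20.2% ± 7.59 in LOH libraries, and Mdm4-211 held 12.5% ± 4.05 and 15.6% ± 4.35 (SD, n = 3 each). Shares of all 3 overlapped between groups. In counts, Mdm4-210, Mdm4-211 and Mdm4-214 had log2 fold changes of 0.26, 0.43 and 0.33, and on the log2(TPM + 1) scale they turned to -0.14, -0.00 and -0.09.

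**Figure D3:**
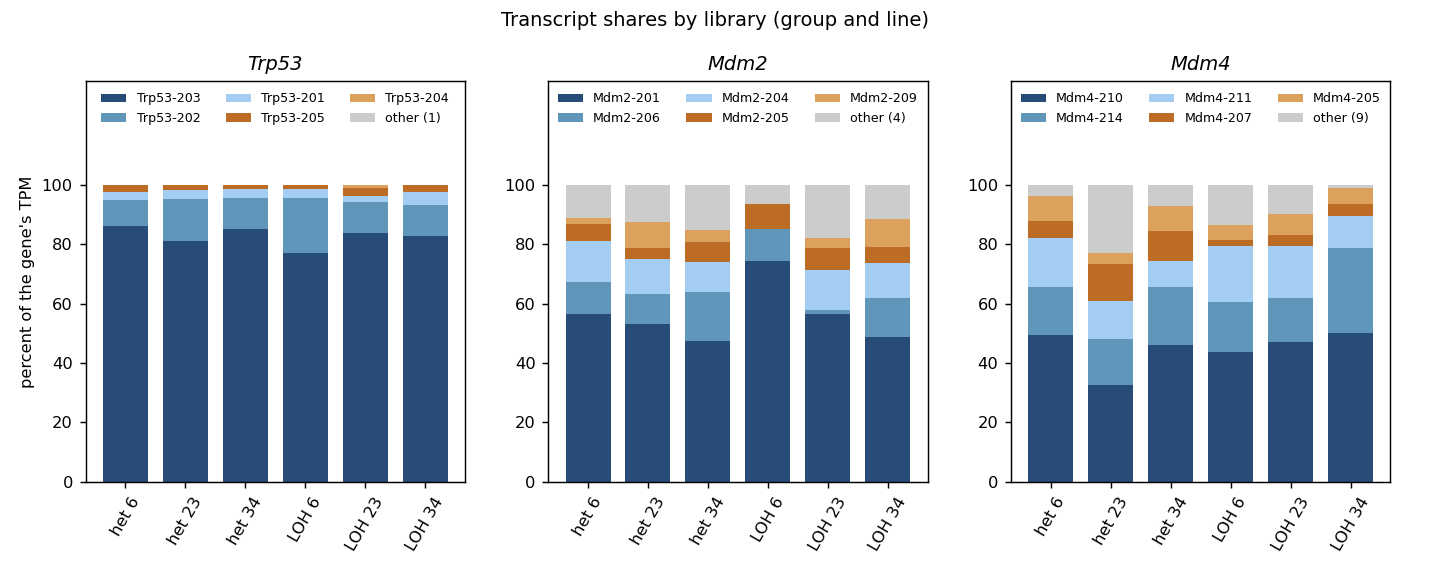
Percent of the gene's TPM (vertical axis) held by each annotated transcript of Trp53, Mdm2 and Mdm4 in the 6 libraries, het standing for heterozygous. Stacked colours are the 5 transcripts with the largest shares and grey is the rest. Trp53-203 takes 77.2% to 86.2% in every library, whereas no Mdm4 transcript reaches more than 49.98%.

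Other regulators of p53 were grouped by role, without the 8 genes. Of 106 such genes 105 were tested, and 1 was called higher and 2 lower (2.86%, against 5.21% of all genes), with a median log2 fold change of -0.07. With the replicate block 0 were called (1.47% of all genes), and 13 were without the LOH library of line 6 (16.2% of all genes). DESeq2 called 11, and 14.1% of all genes with an adjusted p. On log2(TPM + 1) limma called 19, and 16% of all genes. The counts of 13, 11 and 19 thus came in fits that called more of the whole table. Without a filter 5 regulators were called, where 979 of 27027 genes were, against 757 of 14537 in the main fit. Among 17 E3 ligases other than Mdm2, Rffl, a RING ligase reported to act on p53, rose from 11.3 ± 0.556 to 37.5 ± 11 CPM (SD, n = 3 each; 1.73 in log2, SE 0.26, adjusted p = 0.0225 by edgeR), and the median was -0.03. None of 9 deubiquitinases (median 0.28) and none of 20 kinases (median 0.00) passed. Of 5 phosphatases and subunits 1 passed, namely Ccng1, which encodes cyclin G1, a partner of the phosphatase PP2A and a p53 target. Ccng1 fell from 297 ± 43.1 to 66.2 ± 35.7 CPM (SD, n = 3 each; -2.17 in log2, SE 0.39, adjusted p = 0.0314 by edgeR).

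Acetyl and methyl modifiers (15 of 16 tested, median -0.15), binding cofactors (20 tested, median 0.06) and partners or ligases of p63 and p73 (8 tested, median 0.07) had 0 called genes. Unadjusted p-values under 0.05 were reached by 3, 1 and 0 of them, and by 0 deubiquitinases and 0 kinases. Inhibitors of Mdm2 of the ARF and ribosomal kind (11 genes) had a median of -0.68, with 7 at an unadjusted p under 0.05 (25.3% of all genes) and 1 called. That gene was Rps27l, which encodes a ribosomal protein that binds Mdm2 and is itself a p53 target. It fell from 125 ± 26.7 to 45.8 ± 14.7 CPM (SD, n = 3 each; -1.45 in log2, SE 0.30, adjusted p = 0.0428 by edgeR). Cdkn2a, the locus of ARF in that list, averaged 35.8 ± 1.79 CPM with the wild-type allele and 56.8 ± 7.77 CPM without it and did not pass (log2 fold change 0.67, adjusted p = 0.0787 by edgeR).

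Of the direct p53 targets, without the 8 genes, 32 of 33 were tested, 0 were called higher and 11 lower (34.4%, against 1.66% of all genes called lower), with 26 below 0 and a median log2 fold change of -0.82. The called genes were Plk2, Phlda3, Bax, Eda2r, Psrc1, Zmat3, Ccng1, Gtse1, Ckap2, Ercc5 and Aen. The other tested targets did not pass. Among them Cdkn1a averaged 24.8 ± 2.78 and 16.3 ± 7.25 CPM (heterozygous and LOH, SD, n = 3 each; adjusted p = 0.339 by edgeR). Pmaip1, Btg2 and Sesn1 were higher in LOH in all 3 lines (log2 fold changes 1.45, 0.77 and 0.35, adjusted p = 0.0794, 0.139 and 0.433 by edgeR). Plk2, a kinase of the polo family, fell from 93.2 ± 7.95 to 24.2 ± 4.07 CPM (SD, n = 3 each; adjusted p = 0.0122 by edgeR). Phlda3, an inhibitor of Akt signalling, fell from 33.1 ± 2.89 to 4.4 ± 1.86 CPM (SD, n = 3 each; adjusted p = 0.0164 by edgeR). Mdm2, at -1.26, lay below the median of this list. The block left 4 called, where 1.47% of all genes were. Without any 1 heterozygous library 0 targets were called, as were 0 of all genes. Without the LOH library of line 23, 6 were called, and 3.02% of all genes. The list was chosen with results of these libraries known, so it is not independent evidence of their direction.

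Of 19 genes around Trp53 on chromosome 11, other than Wrap53, 16 were tested and 0 were called, against 5.21% of all genes. An unadjusted p under 0.05 was reached by 7, and by 25.3% of all genes. Their median was 0.13, with 8 below 0, close to the 0.06 of all genes. DESeq2 called 4 of them, and 14.1% of all genes with an adjusted p.

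**Figure D4:**
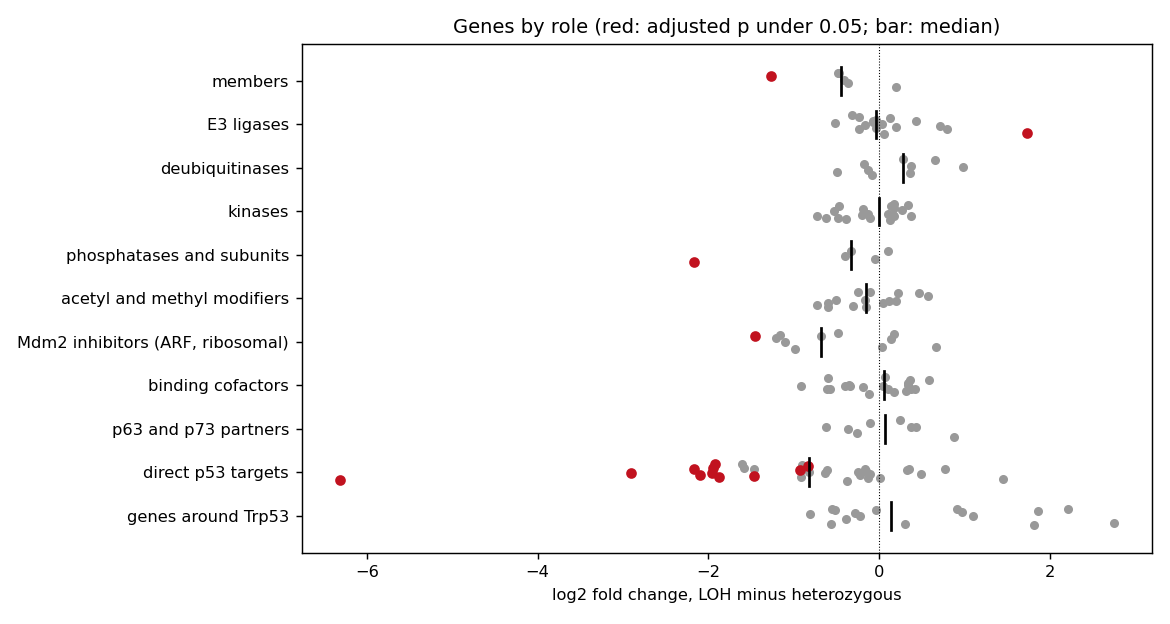
Log2 fold change of LOH over heterozygous (horizontal axis) for the 6 tested members, the lists of regulators, the direct p53 targets and the genes around Trp53, with 1 point per gene and a bar at the median. Red points passed at an adjusted p of 0.05. The direct targets hold 11 red points, all below 0, while the regulator lists hold 3 in all.

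The genes most like Trp53 over the 6 libraries, by the root mean square distance of mean-centred log2 CPM among 10074 genes with at least 5 CPM, were Thoc5 (0.040), Bms1 (0.053) and B3glct (0.054). Those most like Mdm2 were Rnd1 (0.142), Rnf169 (0.142) and Slc48a1 (0.159), with log2 fold changes of -1.21, -1.26 and -1.26. The nearest genes of Mdm2 were thus farther from it than those of Trp53 were from Trp53.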

How the data were processed

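RNA of 6 organoid libraries, made by a kit for stranded total RNA (per the labels), was processed by the authors with FastQC 0.11.5, STAR 2.5.2b, RSEM 1.3.0 and DESeq2 1.44.0 on GRCm38.p5, per the submitters' processing notes. The strand setting and read filters are not given in the sources used here. The deposited expected counts (estimated counts per gene or transcript) and the deposited TPM values come from RSEM, per the file headers, as does the percent of a gene's TPM held by each transcript, which the authors deposited in each library's transcript table. The deposited normalized tables hold a signal, the truncated expected count over 1 size factor, and gave the gene names and the protein-coding set. Effective lengths and transcript lengths, another kind of value the authors deposited, were read but tested nowhere. Coordinates came from GENCODE mouse release 21, whereas the deposited tables name release 16.

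Libraries were grouped by title (3 heterozygous, 3 LOH) with the line as replicate number. Expected counts were rounded, filtered with filterByExpr, scaled by TMM and tested two-sided by edgeR 4.0.16 in R 4.3.3, with adjustment over all genes or transcripts and a threshold of 0.05. SE is the log2 fold change over the square root of F. Single values and ratios were compared by exact permutation with scipy 1.17.1. The line is shared by the 2 cultures of a number, so the numbers pair the samples. No label states a paired model, so the main fit left this pairing out and the replicate block was an alternative. The Mdm2 call at adjusted p = 0.0284 by edgeR belongs to the unpaired fit and was lost with the block. Deviations from the group means correlated at -0.3, 0.01 and 0.29 in lines 6, 23 and 34. Alternatives were scaling by RLE or the upper quartile, all genes unfiltered, genes with at least 10 counts per library, protein-coding genes only, the replicate block, each library or line left out, DESeq2 1.42.0, and limma 3.58.1 on log2(TPM + 1) and log2(TPM + 0.1). The test was tested on simulated data. Named were the 8 genes, up to 2 called genes per list and direction, the 3 genes most like Trp53 and Mdm2, and transcripts with a mean share of at least 10%. Atm, Atr, Cdkn2a, Cftr and the called targets beyond 2 were added after their values were seen. So were Usp9x, Ube3a, Foxj1, Rsph1, Tppp3, Cfap126, Cdkn1a, Pmaip1, Btg2 and Sesn1. The members and lists were chosen with earlier results of these data known. Another allele that all cultures share and 1 marker gene are not reported here.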

Additional observations from a re-analysis of the deposited data

Results flagged for a closer look

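The log2 ratio of LOH to heterozygous differed in sign between organoid lines for 2 of the 6 tested genes, and the difference was not tested because each line has 1 library per genotype. For Mdm4 the ratio ran from -1.13 in line 6 to 1.53 in line 23, a difference of 2.66. For Wrap53 it ran from -1.06 in line 23 to 0.05 in line 34, a difference of 1.11, where the value of line 34 is close to 0.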

How the results depend on the processing

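With the replicate block Mdm2 had a log2 fold change of -1.29 (adjusted p = 0.0905 by edgeR), and calls were 0 members, 0 regulator genes and 4 direct p53 targets. In that fit 1.47% of all genes were called. The block changed the call of no other member. With limma on log2(TPM + 1) and log2(TPM + 0.1), Mdm4 turned to -0.29 and -0.31, Usp7 reached -0.80 and -0.82 and passed (adjusted p = 0.0282 and 0.0297), and 2 and 2 members, 19 and 19 regulators and 2 and 2 genes around Trp53 were called, with 17 targets on the first scale. Of 11918 genes, 1911 and 1753 were called on those scales. Mdm4-210 there turned to -0.14 and -0.16, Mdm4-214 to -0.09 and -0.13, and Mdm4-211 to -0.00 on the first. Called transcripts of the 3 genes were 2 and 1, where 1131 and 340 of 32975 transcripts were called. Without a filter 5 regulators and 1 gene around Trp53 were called, where 979 of 27027 genes were. DESeq2 called 11 and 4, and 14.1% of all genes with an adjusted p. At least 10 counts in every library, and DESeq2, each called 1 transcript, Mdm2-201. The first called 322 of 21676 transcripts and DESeq2 4.34% of those with an adjusted p. Leaving out 1 library or 1 line gave -0.73 to -0.29 for Trp53, -1.43 to -1.09 for Mdm2 and -0.49 to 0.79 for Mdm4. It gave 0 to 2 called members, 0 to 13 regulators, 0 to 15 targets and 0 to 4 genes around Trp53. Over all genes those fits called 0 to 2449. Leaving out 1 library gave -0.18 to 0.62 for Mdm4-210, -0.21 to 1.01 for Mdm4-211 and -0.77 to 0.13 for Trp53-202. Without line 23 or 34 Mdm2 was not called (adjusted p = 0.204 and 0.147 by edgeR). The cause was not tested. Ppm1d and Wrap53 kept their sign and stayed outside the threshold in all 18 alternatives. Depth limits Trp63 and Trp73, which had at most 1 count.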
